A study of Mus musculus with 17 samples.

Results

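Transcripts of 10 cytokine genes were followed across cultured mouse breast cancer cells: the colony-stimulating factors Csf1, Csf2 and Csf3, the IL-1 family genes Il1a, Il1rn and Il33, the IL-6 family genes Il6, Il11 and Lif, and Tslp. The rule that picked them goes by gene name and not by measured value, but they were chosen with earlier results of these data known. They make up 10 of the 55450 genes in the bulk table. All 10 were matched by Ensembl identifier. Of these, 9 passed the filter for testing, which asked for 1 TPM or more in 2 or more of the 14 bulk libraries and kept 15348 genes, and Il11 did not. Csf2 and Il1a reached 1 TPM in 2 libraries each, both from the primary tumor, so these genes entered the test only through the group in which they were high.

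Cells came from female FVB/NJ mice of 10 to 12 weeks that carry MMTV-PyMT, a transgene in which a mammary tumor virus promoter drives the polyoma middle T antigen in the mammary epithelium. Lines were grown from primary tumor in the mammary fat pad (MFP) and from lung, bone marrow (BM) and lymph node (LN) that bore tumor, after about a month of culture in reduced serum. The LN, BM and lung lines had been sorted as EpCAMhigh cells with either low or high surface CD44, giving the groups LN CD44low, LN CD44high, BM CD44low, BM CD44high, lung CD44low and lung CD44high. Each of the 7 groups had 2 bulk libraries, described by the study as distinct clonal isolates from different mice, and 1 single-cell library each of lung CD44low, lung CD44high and LN CD44high cells was analysed. All groups share the transgene, the culture and the strain, and no unsorted normal tissue was compared. In bulk RNA, fewer cells of a type and less RNA per cell cannot be told apart.

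Colony-stimulating factors are secreted proteins that keep myeloid cells alive and drive their division. Csf1 acts on monocytes and macrophages, Csf2 on granulocytes, macrophages and dendritic cells, and Csf3 on neutrophils. The IL-6 family signals through receptors that share the gp130 chain (Il6st) and activate STAT3, with Socs3 as an induced brake, whereas IL-1α (Il1a) and IL-33 act on receptors of the IL-1 family and activate NF-kB, with Il1rn coding for the natural antagonist of IL-1. Tumor cells, fibroblasts and epithelia can all make such factors.

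The bulk values are TPM, a transcript level scaled by length and by library. The libraries held 11508 to 13052 genes at 1 TPM or more, and the Spearman correlation between the 2 libraries of a group was 0.895 to 0.975 across genes. The sorted label did not match the RNA of the lung lines. Epcam was listed at 0 in both lung CD44low libraries and at 0.23 and 0.86 TPM in lung CD44high, against 315 to 941 TPM in the other 10 libraries. The 9 epithelial markers summed to 1.74 and 2.42 TPM in lung CD44low and to 15.7 and 87.5 TPM in lung CD44high, against 2091 to 7708 TPM elsewhere. The 8 fibroblast markers summed to 4708 and 5117 TPM in lung CD44low, where all 8 were at 1 TPM or more, to 85.7 and 195 TPM in lung CD44high, where Col1a2 and Thy1 were listed at 0, and to at most 19.9 TPM elsewhere. The 7 macrophage markers summed to 45.8 to 66.4 TPM in lung and to 21.95 to 268 TPM elsewhere, with Cd14 at 6.69 to 262 TPM and Lyz2 at up to 35.2 TPM (34.8 and 35.2 in lung CD44low), whereas Adgre1 was listed at 0 in all 14 libraries and Ptprc was at most 0.20 TPM. Of the other leukocyte lists, the neutrophil marker S100a8 reached 325 TPM in 1 BM CD44high library and 136 TPM in 1 lung CD44high library, with Csf3r at most 0.04 TPM, and the 4 T and B cell markers summed to at most 0.47 TPM. The 4 mast cell and basophil markers summed to at most 29.45 TPM and did not move together: Kit made up nearly all of the sum in LN CD44high and BM, Mcpt8 stood at 6.90 and 8.42 TPM in lung CD44low (86 counts in its single-cell library) and at 3.76 and 1.33 TPM in MFP, and Cpa3 and Fcer1a were at most 0.04 and 0.11 TPM. The part of these differences in the lung results below was not tested.

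Levels of the 10 genes fell into a few patterns. Il1a, Csf2 and Lif were highest in the MFP lines, Csf1 and Il6 were highest in lung CD44low, and Il33 and Il1rn were highest in BM CD44high by group mean. Csf3 was abundant in MFP and BM CD44high and listed at 0 in all 4 lung libraries. Tslp was present in every group except lung CD44high, in which Csf2, Csf3, Il1a, Il1rn, Il33 and Tslp were all listed at 0 in both libraries. These levels are shown library by library in the plot of the 10 cytokines.

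**Figure D1:**
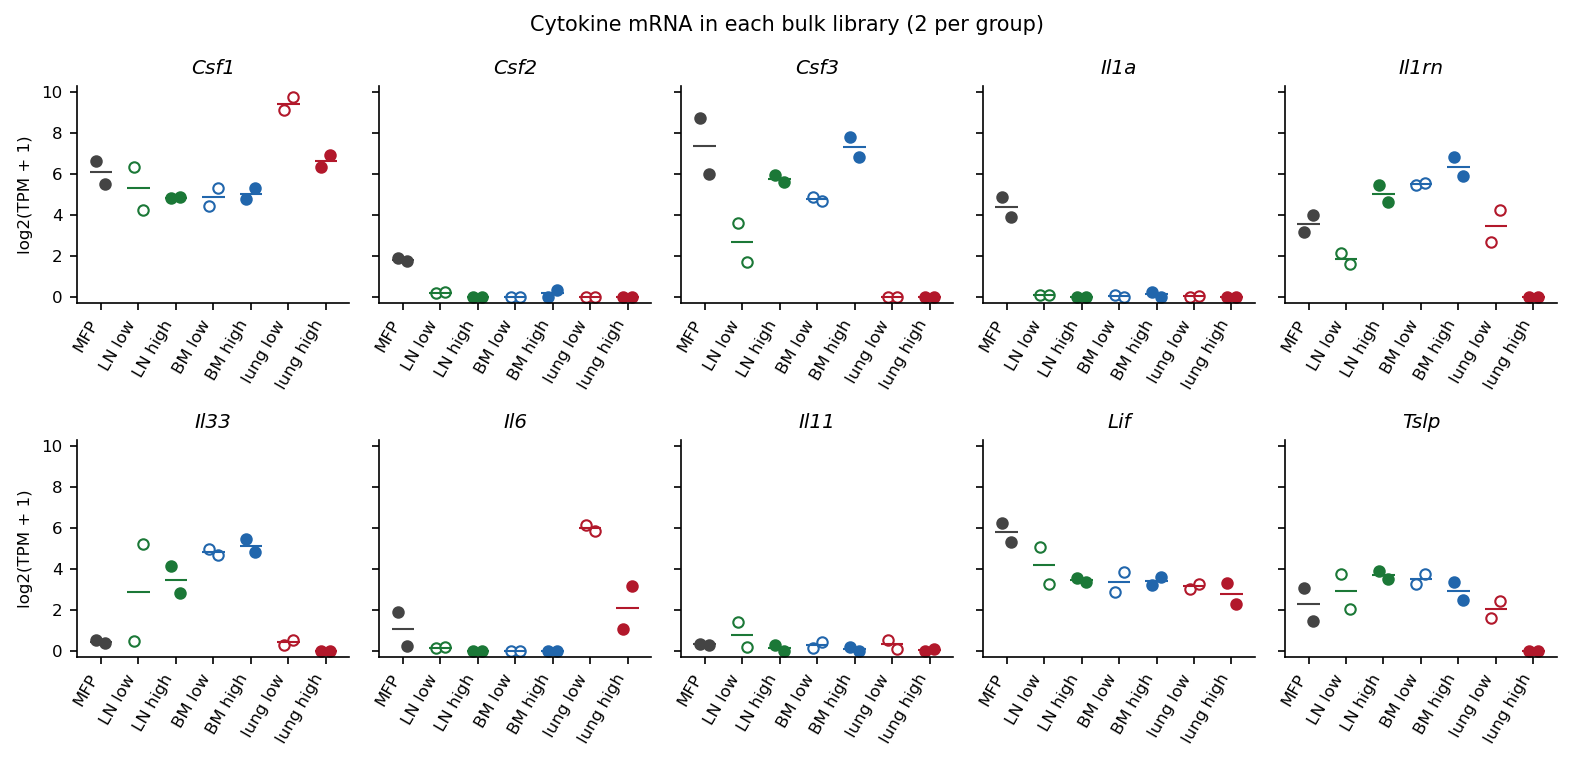
Level of each cytokine gene in the 14 bulk libraries, as log2(TPM + 1) on the vertical axis, by group on the horizontal axis. Each circle is 1 library (open for CD44low, filled for CD44high and MFP) and each bar is the mean of the 2 libraries of a group. Csf1 and Il6 are highest in lung CD44low, Il1a and Csf2 in MFP, and Csf3 lies at 0 in all 4 lung libraries.

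Differences below are log2 fold changes on the log2(TPM + 1) scale from a limma fit with 7 group means, given with the standard error (SE). A gene was called when the log2 fold change passed 2 in size and the Benjamini-Hochberg adjusted p over all tested genes was under 0.05. With 2 libraries against 2, an exact permutation test of 1 gene cannot give a two-sided p under 0.333, so each call rests on the spread that limma shares across genes. The 6 comparisons with MFP share the same 2 MFP libraries and are not independent.

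Csf1 (ENSMUSG00000014599.10, mm10 chr3:107741048-107760469, minus strand) codes for M-CSF, the main survival factor of macrophages. It was the only colony-stimulating factor found in all 14 libraries. Its levels were 99.6 and 45.3 TPM in MFP, 80.9 and 18.1 in LN CD44low, 27.3 and 28.1 in LN CD44high, 20.4 and 38.8 in BM CD44low, 26.2 and 38.7 in BM CD44high, 549.9 and 862 in lung CD44low, and 79.3 and 121 in lung CD44high. Both lung CD44low libraries lay above all 12 others, while the lung CD44high libraries overlapped those of MFP and LN CD44low. Csf1 was higher in lung CD44low than in MFP by 3.34 ± 0.64 (SE; adjusted p = 0.00208) and lower in lung CD44high than in lung CD44low (log2 fold change -2.80 ± 0.64, adjusted p = 0.00856). The lung CD44 call was lost without lung CD44low replicate 2 (-2.48, adjusted p = 0.0749) or lung CD44high replicate 1 (-2.50, adjusted p = 0.0663). The 4 lung libraries were higher than the 8 LN and BM libraries by 3.02 ± 0.39 (adjusted p = 0.000109).

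Csf2 (ENSMUSG00000018916.5, mm10 chr11:54247271-54249667, minus strand) codes for GM-CSF. It stood at 2.68 and 2.34 TPM in MFP, at 0.15 and 0.17 TPM in LN CD44low and at 0 and 0.26 TPM in BM CD44high, and was listed at 0 in the other 8 libraries. The MFP libraries did not overlap any other group. As for Il1a below, the filter admitted Csf2 only through MFP, so no p is given for the difference. No comparison with MFP passed the size limit: in LN CD44low, the log2 fold change was -1.60 ± 0.15. With a pseudocount of 0.1 in place of 1, it was -3.33. At 2 to 3 TPM, the size of this change depends on the pseudocount.

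Csf3 (ENSMUSG00000038067.2, mm10 chr11:98701263-98703629, plus strand) codes for G-CSF, which directs neutrophil production. It reached 430.2 and 64.1 TPM in MFP, 11.4 and 2.25 in LN CD44low, 60.1 and 48.4 in LN CD44high, 28.9 and 25.1 in BM CD44low, and 219.8 and 112 in BM CD44high, and was listed at 0 in the 4 lung libraries. The 2 MFP libraries were far apart, and those of LN CD44high lay just below the lower one. Csf3 was lower than in MFP in both lung groups (adjusted p = 5.64e-05 in CD44low and 8.91e-05 in CD44high) and in LN CD44low (-4.72 ± 0.81, adjusted p = 0.00352). It was also called lower in BM CD44low (-2.58 ± 0.81, adjusted p = 0.045), a call lost in 11 of the 14 fits that left out 1 library (adjusted p up to 0.306). Without MFP replicate 1 that value was -1.22 (adjusted p = 0.306). In LN and in BM, both CD44high libraries lay above both CD44low libraries, yet the differences did not pass the test (3.11 ± 0.81, adjusted p = 0.202 in LN, and 2.50 ± 0.81, adjusted p = 0.624 in BM).

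Il1a (ENSMUSG00000027399.1, mm10 chr2:129299610-129309972, minus strand) codes for IL-1α, an alarm cytokine held in epithelial cells and released on damage. It stood at 28.5 and 13.9 TPM in MFP and at no more than 0.20 TPM in each of the other 12 libraries, 7 of which were listed at 0. Because the filter admitted Il1a only through the MFP libraries, its calls lower than MFP in all 6 groups are not independent of that choice and are given no p. In LN CD44low the log2 fold change was -4.30 ± 0.27. Its closest relative in the table, Il1b, stood at 0.42 TPM in MFP replicate 2 and was listed at 0 elsewhere.

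Il1rn (ENSMUSG00000026981.15, mm10 chr2:24336853-24351494, plus strand), the IL-1 receptor antagonist, did not follow Il1a. Its levels were 7.88 and 15.0 TPM in MFP, 3.37 and 2.07 in LN CD44low, 43.1 and 23.6 in LN CD44high, 43.2 and 46.5 in BM CD44low, 111 and 59.4 in BM CD44high, and 5.43 and 17.6 in lung CD44low, and it was listed at 0 in lung CD44high. All 4 BM libraries lay above both MFP libraries. It was called higher than MFP in BM CD44high (2.79 ± 0.53, adjusted p = 0.00415) and fell just short of the size limit in BM CD44low (1.94 ± 0.53, adjusted p = 0.026), where it was called with a pseudocount of 0.1 or with median-ratio scaling (2.03 and 2.20). It was called lower in lung CD44high, both against MFP (adjusted p = 0.000611) and against lung CD44low (adjusted p = 0.000889). In LN the direction was the opposite, with CD44high above CD44low by 3.17 ± 0.53 (adjusted p = 0.0424). This LN call was lost in 12 of the 14 fits with 1 library left out (adjusted p up to 0.304), whereas the difference between the lung and LN contrasts was called in all 14 (adjusted p = 0.000181 with all libraries). BM exceeded LN by 2.48 ± 0.38 (adjusted p = 0.0102), a call lost without LN CD44high replicate 2 (2.27, adjusted p = 0.0535) and in a fit of only the LN and BM libraries (adjusted p = 0.0608).

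Il33 (ENSMUSG00000024810.16, mm10 chr19:29925114-29960718, plus strand) codes for a nuclear alarm cytokine of barrier cells. It stood at 0.45 and 0.30 TPM in MFP, 0.38 and 36.8 in LN CD44low, 16.5 and 6.05 in LN CD44high, 30.4 and 24.9 in BM CD44low, and 42.6 and 27.2 in BM CD44high, then at 0.22 and 0.45 in lung CD44low and at 0 in lung CD44high. The 2 LN CD44low isolates differed more than any other pair for this gene, so that group spanned nearly the whole range. Il33 was called higher than MFP in BM CD44low (4.38 ± 1.16, adjusted p = 0.0221) and BM CD44high (4.67 ± 1.16, adjusted p = 0.0147). Both calls were lost whenever a library of MFP or of the BM group concerned was left out, with log2 fold changes that stayed between 4.24 and 4.99 (adjusted p up to 0.103). LN CD44high was not called (3.02 ± 1.16, adjusted p = 0.0883), but without either LN CD44low library it was (3.02, adjusted p = 0.00113 or 0.00115). In LN CD44low the value was 4.78 (adjusted p = 0.000492) without replicate 1 and 0.01 without replicate 2. Il33 reached 1 TPM only in LN and BM libraries, so the filter admitted it only through them. The 4 lung libraries were called lower than LN and BM (-3.87 ± 0.71), a call not independent of that filter and given no p.

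Il6 (ENSMUSG00000025746.11, mm10 chr5:30013114-30019981, plus strand) codes for the founding member of the gp130 cytokines. It reached 71.0 and 56.6 TPM in lung CD44low and 1.07 and 7.85 TPM in lung CD44high. In MFP it stood at 2.72 and 0.20 TPM, in LN CD44low at 0.10 and 0.14 TPM, and it was listed at 0 in LN CD44high and in both BM groups. Lung CD44low did not overlap any other group. It was higher there than in MFP by 4.93 ± 0.63 (adjusted p = 0.000167), and lung CD44high was lower than lung CD44low (-3.91 ± 0.63, adjusted p = 0.00119). The latter had an adjusted p of 0.0557 when only the lung libraries were fitted. The lung CD44 difference differed from that in LN (adjusted p = 0.0161) and in BM (adjusted p = 0.0148). With Il6 at most 0.14 TPM in LN and BM, both calls mainly restate the lung difference and cannot show a CD44 difference there. Both calls were lost with a pseudocount of 0.1 (adjusted p = 0.159 and 0.0792) and without lung CD44low replicate 1 (0.066 and 0.0651), and that against LN also without LN CD44high replicate 1 or 2 (0.0513 and 0.0504).

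Lif (ENSMUSG00000034394.14, mm10 chr11:4257557-4272514, plus strand), a gp130 cytokine named for its arrest of leukemia cells, was found in every library. It stood at 74.8 and 39.5 TPM in MFP, 33.0 and 8.62 in LN CD44low, 11.0 and 9.41 in LN CD44high, 6.35 and 13.6 in BM CD44low, 8.20 and 11.2 in BM CD44high, 7.22 and 8.54 in lung CD44low, and 8.87 and 3.84 in lung CD44high. Both MFP libraries lay above all 12 others. Lif was called lower than MFP in LN CD44high (-2.31 ± 0.60, adjusted p = 0.0206), BM CD44low (-2.42 ± 0.60, adjusted p = 0.0173), BM CD44high (-2.39 ± 0.60, adjusted p = 0.0161), lung CD44low (-2.65 ± 0.60, adjusted p = 0.00552) and lung CD44high (-3.003 ± 0.60, adjusted p = 0.00349). Without MFP replicate 1, the first 4 calls were lost (-1.86, -1.97, -1.94 and -2.19; adjusted p = 0.14, 0.125, 0.118 and 0.0517). The LN CD44high call was also lost without LN CD44high replicate 1 or 2 (adjusted p = 0.0781 and 0.101), the BM CD44high call without BM CD44high replicate 1 or 2 (0.0962 and 0.0534), and the BM CD44low call without BM CD44low replicate 1 (0.0701). With median-ratio scaling, LN CD44high (-1.80) and BM CD44high (-1.85) no longer passed the size limit. LN CD44low was not called (-1.61 ± 0.60, adjusted p = 0.114), and its value was -2.53 without its replicate 1 and -0.70 without its replicate 2.

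Il11 (ENSMUSG00000004371.15, mm10 chr7:4772373-4782859, minus strand), another gp130 cytokine, was not tested. It passed 1 TPM in 1 library, LN CD44low replicate 1 at 1.67 TPM, and lay between 0 and 0.46 TPM in the other 13.

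Tslp (ENSMUSG00000024379.4, mm10 chr18:32815383-32819797, plus strand) codes for an epithelial cytokine that acts on dendritic cells. It stood at 7.51 and 1.77 TPM in MFP, 12.6 and 3.12 in LN CD44low, 13.7 and 10.5 in LN CD44high, 8.52 and 12.3 in BM CD44low, 9.33 and 4.59 in BM CD44high, and 2.03 and 4.46 in lung CD44low, and was listed at 0 in lung CD44high. The libraries of LN CD44high lay above those of MFP, BM CD44high and lung CD44low, and those of BM CD44low above MFP and lung CD44low, while LN CD44low overlapped every group but lung CD44high. Lung CD44high was called lower than MFP (adjusted p = 0.0212) and than lung CD44low (adjusted p = 0.0408). The first call was lost without MFP replicate 1 (adjusted p = 0.177) or either lung CD44high library (0.0882 and 0.0794), and the second in 8 of the 14 fits with 1 library left out (adjusted p up to 0.231). The 4 lung libraries were called lower than the 8 LN and BM libraries (adjusted p = 0.000873).

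Counted over the 9 tested genes, LN CD44low had 2 called lower than MFP (Csf3 and Il1a) and 0 higher, where 2.72% and 2.07% of all tested genes were called. LN CD44high had 2 lower (Il1a and Lif) and 0 higher, against 3.68% and 2.44% of all genes. BM CD44low had 3 lower (Csf3, Il1a and Lif) and 1 higher (Il33), against 3.17% and 3.99%. In BM CD44high, 2 were lower (Il1a and Lif) and 2 higher (Il1rn and Il33), against 4.03% and 3.64%. Lung CD44low had 3 lower (Csf3, Il1a and Lif) and 2 higher (Csf1 and Il6), against 7.62% and 11.2%, and lung CD44high had 5 lower (Csf3, Il1a, Il1rn, Lif and Tslp) and 0 higher, against 8.03% and 5.42%. Il1a stands in each of these 6 counts of lower genes only because the filter let it in through MFP. Scaling the libraries by their median ratio moved the median of all genes by over 0.1, for example from -0.30 to 0.02 in LN CD44high, and turned the split of higher against lower calls there from 375 and 565 genes to 511 and 361.

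The CD44 comparison asked which genes separate the 2 sorted populations of an organ. In LN, 1 gene was called higher in CD44high (Il1rn) and 0 lower, against 0.117% and 0.0912% of all genes, and in BM 0 were called either way, against 0.0521% higher and 0.0521% lower. In the BM fit, 1 of the 9 genes had an unadjusted limma p under 0.05. In lung, 4 genes were lower in CD44high (Csf1, Il1rn, Il6 and Tslp) and 0 higher, against 8.80% and 2.49%. Over the 3 organs together, with the organ as a term in the fit, limma called 0 of the 9 genes and 0% of all genes in either direction, with 1 of the 9 and 3017 of the 15348 genes at an unadjusted p under 0.05. For differences between organs in the CD44 contrast, the rule was an adjusted p under 0.05 alone, with no size limit. The CD44 difference itself differed between lung and LN for 2 genes (Il1rn and Il6, against 19.5% of all genes). Between lung and BM it did so for the same 2 genes (against 15.3%), and between BM and LN for 0 (against 0.143%). Il6 was at most 0.14 TPM in LN and BM, so its calls here mainly restate its lung difference. In the BM and LN contrast, 1 of the 9 had an unadjusted limma p under 0.05.

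Between organs, lung differed from LN and BM in 6 of the 9 genes, with Csf1 and Il6 higher and Csf3, Il1rn, Il33 and Tslp lower, against 7.13% of all genes higher and 5.54% lower. These 6 calls were kept in all 14 fits with 1 library left out. Il6 passed the filter only through lung, since outside lung it reached 1 TPM only in MFP replicate 1 (2.72 TPM). Il33 passed only through LN and BM, so the calls of both genes are descriptions. Median-ratio scaling turned the split over all genes from 1095 higher and 851 lower to 864 and 1030, and moved the median of all genes from 0.20 to -0.01. BM against LN gave 1 higher gene (Il1rn) and 0 lower, against 0.345% and 0.0521%.

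The start regions of 4 of the genes are shown: Csf1 and Il6, which were highest in lung CD44low, and Il1a and Lif, which were highest in MFP. Csf2 was also highest in MFP but is not shown, and its start region held no match to TGANTCA, the kappaB motif or TATAAA. Sequences are from RefSeq on GRCm38.p6, run 5′ to 3′ on the strand of the gene over the 250 bases before the start site, and the promoter table held 8 of the 10 genes (not Csf3 or Tslp). Capitals mark matches to TGANTCA (AP-1), to the kappaB motif and to TATAAA, a core promoter element. The windows are chr3:107760470-107760719 (minus strand) for Csf1, chr5:30012864-30013113 (plus strand) for Il6, chr2:129309973-129310222 (minus strand) for Il1a and chr11:4257318-4257567 (plus strand) for Lif.
Csf1: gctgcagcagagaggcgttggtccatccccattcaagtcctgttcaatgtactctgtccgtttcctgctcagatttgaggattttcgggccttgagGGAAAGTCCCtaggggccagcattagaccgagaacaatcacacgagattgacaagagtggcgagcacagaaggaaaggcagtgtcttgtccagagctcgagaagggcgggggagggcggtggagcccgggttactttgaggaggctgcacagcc
Il6: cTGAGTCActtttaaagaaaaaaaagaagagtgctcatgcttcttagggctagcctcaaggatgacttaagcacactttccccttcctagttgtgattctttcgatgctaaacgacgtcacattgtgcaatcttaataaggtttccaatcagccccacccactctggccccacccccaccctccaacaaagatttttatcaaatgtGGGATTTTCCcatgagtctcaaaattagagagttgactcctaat
Il1a: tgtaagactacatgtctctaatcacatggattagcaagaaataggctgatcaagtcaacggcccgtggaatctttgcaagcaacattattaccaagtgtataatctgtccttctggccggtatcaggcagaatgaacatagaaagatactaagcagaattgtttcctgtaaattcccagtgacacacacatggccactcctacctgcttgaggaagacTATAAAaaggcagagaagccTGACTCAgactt
Lif: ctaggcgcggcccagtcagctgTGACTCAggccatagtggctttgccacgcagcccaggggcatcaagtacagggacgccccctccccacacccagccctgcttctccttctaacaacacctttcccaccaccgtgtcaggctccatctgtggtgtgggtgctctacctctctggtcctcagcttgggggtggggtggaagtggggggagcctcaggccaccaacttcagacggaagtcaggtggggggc

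Both strands of 300 bases (250 before and 50 after the start site) were searched, and positions count from the start site. The kappaB motif, bound by NF-kB, was found in Csf1 at position -154 and in Il6 at -44, and in 4.51% of the 32851 promoters of the table outside chromosome 18. TGANTCA was found in Il6 at -249, Lif at -228 and Il1a at -12, as well as at 1 start site each of Il11 and Il1rn, and in 7.81% of all promoters. TATAAA was found in Il1a at -32, at both start sites of Il33 and at 1 of Il1rn, and in 13.6% of promoters. TTNNGNAA, a C/EBP motif, was found in Il6 at -128, Csf2 at -145 and Il1a at -43, at start sites of Il1rn and Il33, and in 40.7% of promoters, and TTCNNNGAA, a STAT motif, in none of the 8 genes and in 8.30% of promoters. The capital stretches do not overlap each other. Binding was not measured in these cells, so the matches are descriptions of letters.

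Receptors of these cytokines were read from a list of 16 genes, of which 10 were tested. Receptors of the colony-stimulating factors were low in bulk RNA: over all 14 libraries, Csf1r was at most 0.69 TPM, Csf2ra 1.27, Csf2rb 0.29 and Csf3r 0.04. In the single-cell libraries, Csf1r stood at 0.23 per 10000 counts in lung CD44low, 0.131 in lung CD44high and 0.148 in LN CD44high, against 0.157, 0.183 and 0.223 in the barcodes that did not pass the cell filter, so its counts in lung CD44high and LN CD44high are not above that background. Csf2rb gave 17, 24 and 3 counts, Csf2ra at most 2 and Csf3r 0. In lung CD44low, 5 receptors were called higher than MFP (Osmr, Il1rl1, Lifr, Il6st and Il11ra1) and 0 lower, where 11.2% of all tested genes were called higher and 7.62% lower. Il1rl1 is in this count only because lung CD44low, where it is high, took it past the filter, so its call is a description. In lung CD44high, 3 were called higher (Osmr, Il6ra and Il11ra1) and 0 lower, against 5.42% and 8.03% of all genes.

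Osmr, which pairs with gp130 to bind oncostatin M, reached 336 and 419 TPM in lung CD44low and 209 and 177 in lung CD44high, against 2.80 to 17.2 TPM in the other 10 libraries, and was higher than MFP by 6.11 ± 0.36 and 5.14 ± 0.36 (adjusted p = 5.93e-07 and 4.26e-06). Its ligand gene Osm was listed at 0 in all 14 libraries. Il6st, the shared gp130 chain, reached 193 and 360 TPM in lung CD44low and 179 and 47.2 in lung CD44high, and was called in lung CD44low (2.77 ± 0.79, adjusted p = 0.0163), though not without either MFP library or without lung CD44low replicate 2 (adjusted p = 0.0712, 0.0671 and 0.118). Il6ra, the IL-6 binding chain, went the other way from its ligand in bulk: it reached 105 and 79.8 TPM in lung CD44high and 7.13 and 10.0 TPM in lung CD44low, a difference of 3.29 ± 0.40 (adjusted p = 0.000193). In the single-cell libraries both ran the same way, with Il6 also higher in lung CD44high. Il6ra stood at 0.538 per 10000 counts (interval 0.446 to 0.644) in lung CD44high and 0.126 (0.0838 to 0.182) in lung CD44low. The barcodes that did not pass held Il6ra at 0.559 and 0.0913, so its level in lung CD44high is not above that background. Il11ra1, the IL-11 binding chain, reached 59.7 and 56.4 TPM in lung CD44low and 124 and 85.7 in lung CD44high, against 5.45 to 11.99 TPM elsewhere, and was higher than MFP by 2.55 ± 0.34 and 3.36 ± 0.34 (adjusted p = 0.000239 and 5.71e-05). Its order between the lung groups turned in single cells, at 0.275 per 10000 (0.21 to 0.353) in CD44low and 0.127 (0.0842 to 0.183) in CD44high. Lifr, which pairs with gp130 to bind LIF, stood at 12.3 and 20.3 TPM in lung CD44low and at 2.17 and 2.54 in lung CD44high (-2.33 ± 0.32, adjusted p = 0.000404), against at most 5.45 TPM in the other 10 libraries. Without lung CD44low replicate 2 that difference was -1.99, below the size limit. In single cells Lifr stood at 0.0946 per 10000 (0.0585 to 0.145) in lung CD44low and 0.176 (0.125 to 0.241) in lung CD44high, the opposite order with intervals that overlap. The barcodes that did not pass held Lifr at 0.0652 and 0.223, so its level in lung CD44high is not above that background.

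Il1rl1, the IL-33 receptor ST2, reached 25.8 and 34.9 TPM in lung CD44low, was listed at 0 in lung CD44high and LN CD44high, and was at most 1.46 TPM elsewhere. Its ligand gene Il33 was at most 0.45 TPM in the lung libraries. Il1rap, the chain that IL-1α and IL-33 receptors share, ranged from 5.71 to 35.7 TPM over all libraries. Il1r1, which binds IL-1α and its antagonist, was at most 5.04 TPM, in lung CD44low. Crlf2, the TSLP receptor chain, ranged from 1.23 to 19.2 TPM, but Il7r, the chain it pairs with, was at most 0.09 TPM.

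**Figure D2:**
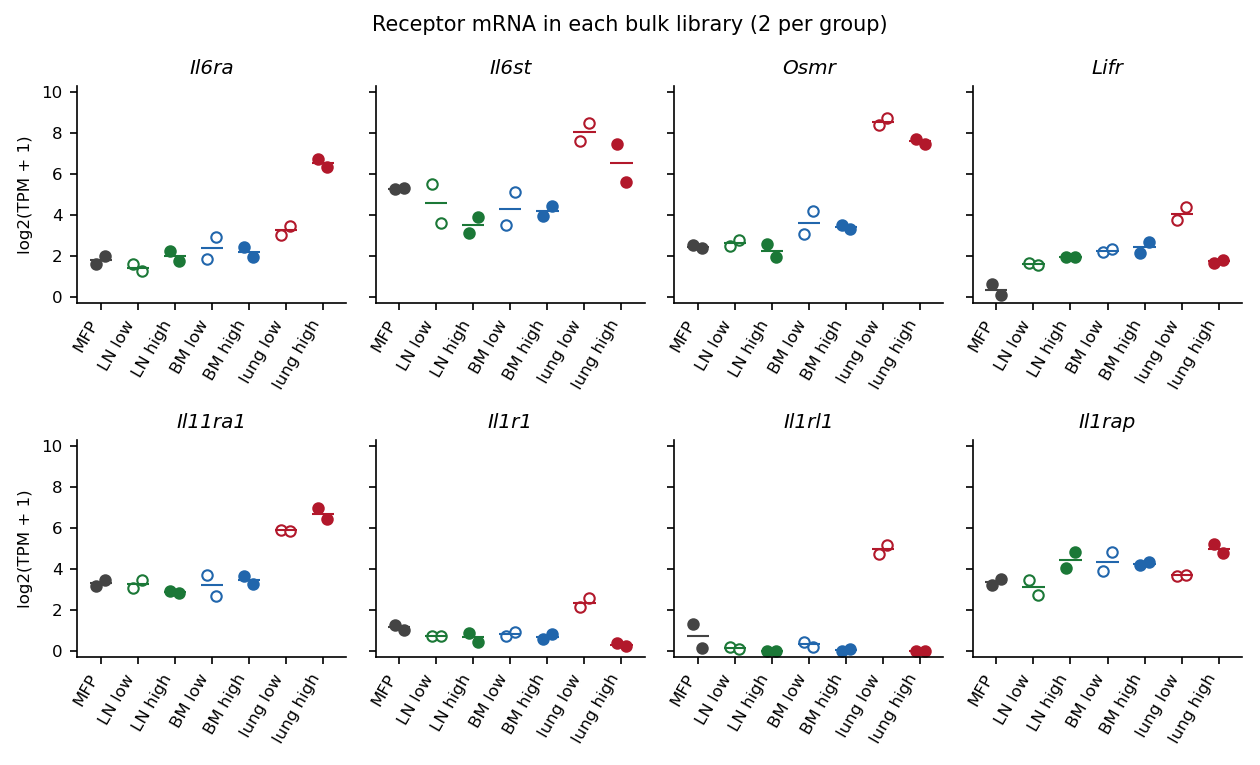
Level of 8 receptor genes in the 14 bulk libraries, as log2(TPM + 1) on the vertical axis, by group on the horizontal axis. Each circle is 1 library (open for CD44low, filled for CD44high and MFP) and each bar is a group mean. Osmr is above 100 TPM in all 4 lung libraries, Il6ra in lung CD44high is above the other groups, and Il1rl1 is above 25 TPM in lung CD44low.

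Among 16 signal transducers and feedback genes, all tested, 4 were called higher in lung CD44low than in MFP (Socs3, Cebpb, Cebpd and Bcl3), and 0 lower, against 11.2% and 7.62% of all genes. The same 4 were lower in lung CD44high than in lung CD44low, against 8.80% of all genes. Socs3, the feedback inhibitor of gp130 signalling, stood at 5.16 and 3.84 TPM in MFP, ranged from 23.1 to 80.8 TPM across LN and BM, and stood at 79.0 and 138 TPM in lung CD44low and 7.52 and 7.88 TPM in lung CD44high. It was called higher than MFP in LN CD44low (2.21 ± 0.40, adjusted p = 0.0045), LN CD44high (2.88 ± 0.40, adjusted p = 0.000725), BM CD44low (3.25 ± 0.40, adjusted p = 0.000328), BM CD44high (3.33 ± 0.40, adjusted p = 0.00025) and lung CD44low (4.27 ± 0.40, adjusted p = 1.66e-05). The LN CD44low and BM CD44low calls were lost when only the groups compared were fitted (adjusted p = 0.0594 and 0.0679). Cebpd, a transcription factor of the acute-phase response, stood at 259 and 199 TPM in lung CD44low and at 3.15 and 4.33 TPM in lung CD44high (-5.60 ± 0.78, adjusted p = 0.000463). Cebpb, of the same family, stood at 99.9 and 545 TPM in lung CD44low and at 7.99 and 5.62 TPM in lung CD44high (-4.93 ± 0.81, adjusted p = 0.00129). The single-cell libraries did not all follow the bulk. Per 10000 counts, Cebpd stood at 2.23 in lung CD44low and 1.23 in lung CD44high, but Cebpb at 2.84 (interval 2.62 to 3.07) and 4.64 (4.36 to 4.93). Bcl3 stood at 0.027 (0.00992 to 0.0588) and 0.0859 (0.0517 to 0.134), and Socs3 at 0.0766 and 0.0679 with overlapping intervals. In lung CD44low, Cebpb, Bcl3 and Socs3 were not above the barcodes that did not pass (3.09, 0.0391 and 0.0913).

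Of 18 other ligands of these families, 11 were tested. Il36a, an IL-1 family cytokine listed in the annotation as Il1f6, followed the BM and LN CD44high lines: it stood at 9.25 and 7.68 TPM in LN CD44high, 11.0 and 22.2 in BM CD44low and 26.5 and 16.4 in BM CD44high, and at most 0.48 TPM in the other 8 libraries. These 6 libraries are the ones that took it past the filter, so no p is given. Il34, the second ligand of the CSF1 receptor, ran against Csf1 in lung, at 3.50 and 6.11 TPM in CD44low and 30.6 and 20.4 in CD44high (2.20 ± 0.30, adjusted p = 0.000369). This value fell to 1.87 without lung CD44low replicate 1 and to 1.92 without lung CD44high replicate 1, below the size limit. Kitl, the stem cell factor, was higher in lung than in LN and BM in bulk (3.24 ± 0.41, adjusted p = 9.15e-05). The single-cell libraries did not all follow: Kitl stood at 0.793 per 10000 (0.68 to 0.919) in lung CD44low, 0.47 (0.384 to 0.57) in lung CD44high and 0.641 (0.575 to 0.713) in LN CD44high. The barcodes that did not pass the cell filter held 0.939, 1.05 and 0.917, so none of these levels is above that background.

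Of 14 NF-kB genes and regulators of cytokine mRNA, all tested, lung CD44low had 1 called higher than MFP (Zfp36l2) and 2 lower (Nfkb1 and Nfkb2), against 11.2% and 7.62% of all genes, and lung CD44high had 2 lower (Nfkb2 and Tnfaip3), against 8.03%. The Zfp36l2 call was lost without MFP replicate 2 (adjusted p = 0.0703) or lung CD44low replicate 2 (0.0868). Nfkb2 stood at 65.3 and 79.3 TPM in MFP, 7.51 and 9.52 in lung CD44low and 8.96 and 5.87 in lung CD44high (-2.95 ± 0.35 and -3.14 ± 0.35 against MFP; adjusted p = 0.000108 and 0.000107). Zfp36, which codes for an RNA-binding protein that hastens decay of cytokine mRNA, was lower in lung CD44high than in CD44low (-2.11 ± 0.54, adjusted p = 0.0148), a call lost without lung CD44low replicate 2 (adjusted p = 0.123) or lung CD44high replicate 2 (0.11).

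**Figure D3:**
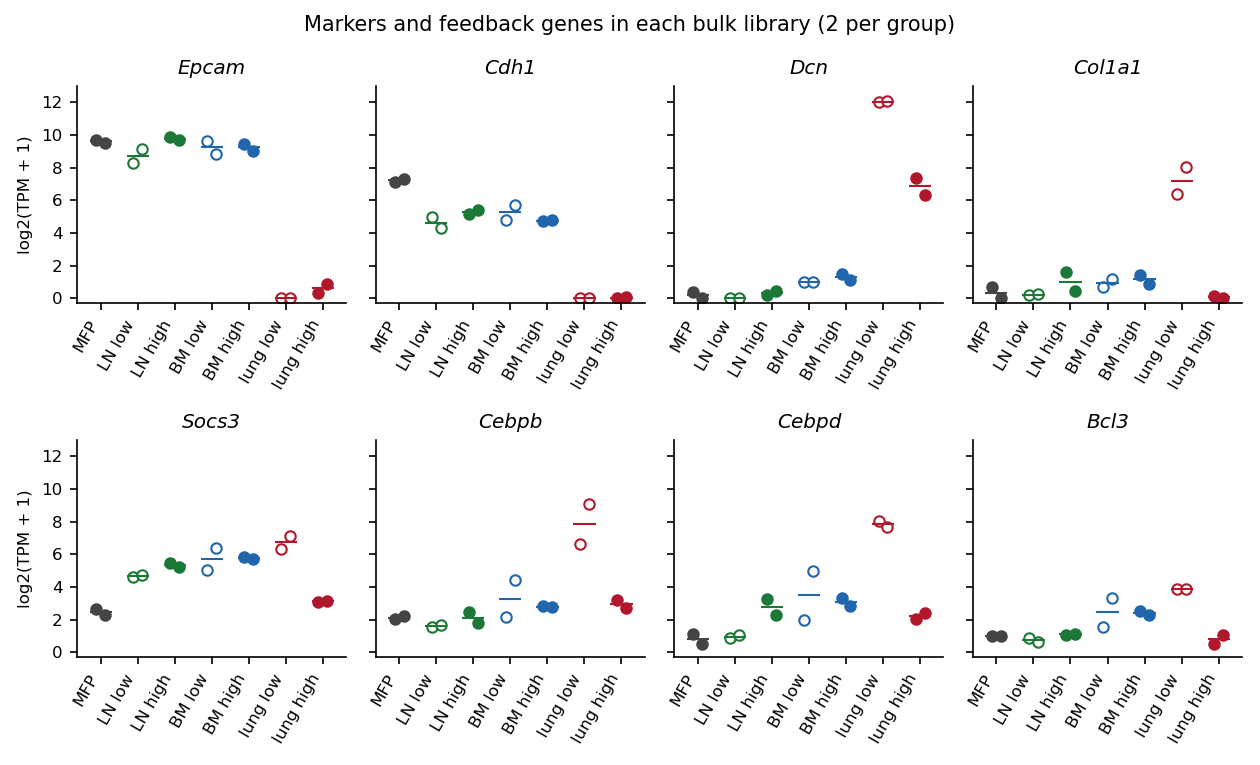
Level of 4 cell type markers (top row) and 4 feedback genes and transcription factors (bottom row) in the 14 bulk libraries, as log2(TPM + 1) on the vertical axis, by group on the horizontal axis. Each circle is 1 library (open for CD44low, filled for CD44high and MFP) and each bar is a group mean. Epcam and Cdh1 lie near 0 in the lung lines, Dcn is highest in lung CD44low, and Socs3, Cebpb, Cebpd and Bcl3 are higher in lung CD44low than in lung CD44high.

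The genes whose levels lay closest to each cytokine over the 14 libraries were found by the root mean square difference on the log2(TPM + 1) scale after centring each gene. For Csf1 they were Ptprk (0.51) and Ppfibp1 (0.55), against a standard deviation of Csf1 itself of 1.61. For Csf3 they were Cxcl1 (1.26), a neutrophil-attracting chemokine, and Slpi (1.30), a secreted protease inhibitor, against a standard deviation of 3.001. For Il6 they were Bmper (0.52) and Itga1 (0.57), and for Il1rn Igsf3 (1.07) and C3 (1.08). Il33 lay nearest to Car12 (0.69) and Col9a1 (0.73), Il1a to Pcolce2 (0.16) and Scgb1b7 (0.17), Csf2 to Ret (0.10) and Gm7897 (0.12), Lif to Uba6 (0.36) and Adam12 (0.39), and Tslp to Ranbp1 (0.54) and Hmga1b (0.56). These are descriptions over libraries that share their groups.

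The single-cell libraries gave counts for the same genes in 3 of the groups, with 1 library each, so no test between them was possible. Cells with more than 250 genes and under 10% mitochondrial counts were kept: 348 of 2808 barcodes in lung CD44low, 1236 of 3623 in lung CD44high and 2562 of 3297 in LN CD44high, with a median of 4011, 557 and 585 counts per cell. Barcodes were only numbered, so those shared between libraries were not counted. Summed over kept cells, the libraries held 2220759, 2210623 and 5287425 counts. Values are counts per 10000 with exact Poisson 95% intervals, which cover counting error only. In LN CD44high, Epcam gave 936 counts, against 0 in lung CD44low and 3 in lung CD44high, and Cdh1 gave 196, 0 and 0. Keratins were also counted in lung CD44high: Krt18 stood at 2.59 per 10000 in lung CD44high, 1.17 in LN CD44high and 0.522 in lung CD44low, and Krt8 at 1.67, 2.80 and 0.135 in the same libraries. Of the fibroblast markers, Col1a2 (3192 counts) and Col1a1 (965 counts) were high in lung CD44low and at most 14 counts in the other libraries, while Dcn gave 22 counts, Thy1 8 and Lum 0 in lung CD44low.

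Csf1 was the most counted of the 10 genes in each library. It stood at 9.15 per 10000 in lung CD44low (interval 8.76 to 9.56; 2033 counts in 214 cells), at 1.73 in lung CD44high (1.56 to 1.92; 383 counts in 143 cells) and at 0.995 in LN CD44high (0.912 to 1.08; 526 counts in 220 cells). The order of the 3 libraries was that of the bulk group means. Lif stood at 0.518 (0.428 to 0.622), 0.353 (0.279 to 0.44) and 0.165 (0.132 to 0.203) per 10000, in the same order of libraries, with intervals of lung CD44low and lung CD44high that overlapped narrowly. Its bulk order was different, since LN CD44high had the highest mean of these 3 groups there (10.2 TPM) and the lowest single-cell level.

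Il6 did not keep its bulk order either. It gave 30 counts in 20 cells of lung CD44high (0.136 per 10000, interval 0.0916 to 0.194) and 8 counts in 7 cells of lung CD44low (0.036, interval 0.0156 to 0.071), with 1 count in LN CD44high. In bulk, both lung CD44low libraries lay above both lung CD44high libraries. The barcodes that did not pass the filter held Il6 at 0.0914 per 10000 in lung CD44high and 0.0652 in lung CD44low, so the kept cells of lung CD44low were not above that level. Tslp, listed at 0 in both lung CD44high bulk libraries, gave 39 counts in 21 cells of that single-cell library (0.176 per 10000, interval 0.125 to 0.241), 39 counts in lung CD44low and 109 in LN CD44high, against 0.112, 0.313 and 0.149 per 10000 in the barcodes that did not pass. Il11 gave 32 counts in lung CD44low (0.144, interval 0.0986 to 0.203), 5 in lung CD44high and 9 in LN CD44high.

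Csf3, at 60.1 and 48.4 TPM in the LN CD44high bulk libraries, gave 2 counts among the 5287425 of the LN CD44high cells. Il1rn gave 9 counts there, 3 in lung CD44low and 0 in lung CD44high. Il33 gave 25 counts in 20 cells of LN CD44high (0.0473 per 10000, interval 0.0306 to 0.0698), 2 in lung CD44low and 0 in lung CD44high, in the order of the bulk means. Il1a gave 3 counts in lung CD44low and 0 in the other libraries, and Csf2 gave 3 counts in LN CD44high and 0 in lung. Taking 3 counts as the limit that a count of 0 allows (a one-sided limit), a gene at 0 could stand at up to 0.0136 per 10000 in lung CD44high, 0.0135 in lung CD44low and 0.00567 in LN CD44high. Single-cell counts came from transcript ends and the bulk TPM from whole transcripts, so only the order of libraries is set side by side, and the labels do not say whether the same isolates were used.

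**Figure D4:**
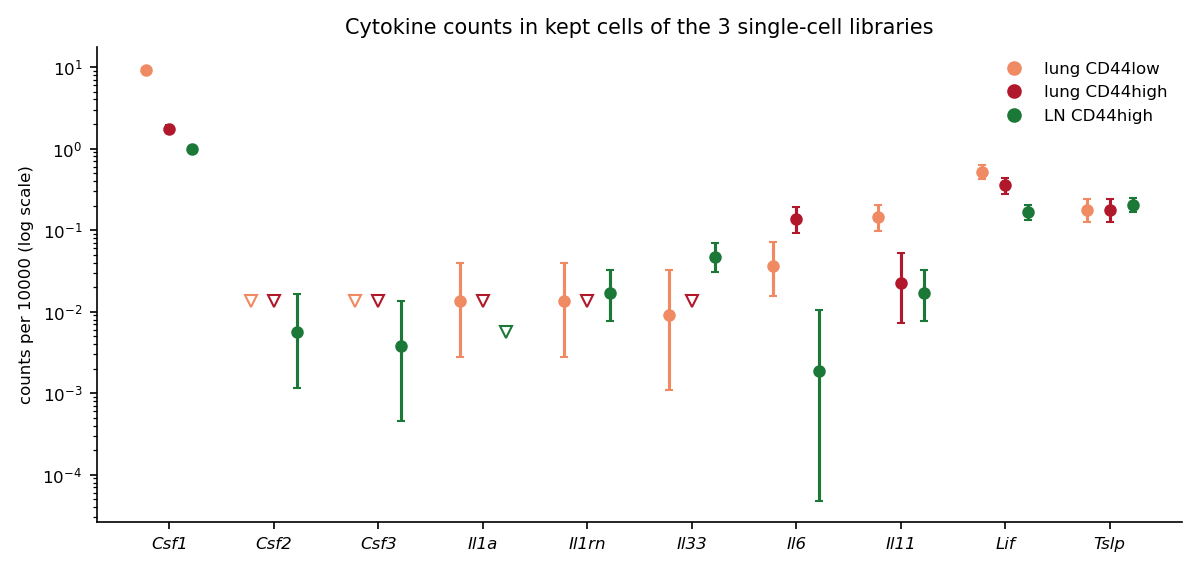
Counts per 10000 of each cytokine gene in the kept cells of the 3 single-cell libraries, on a log axis. Points are summed counts with exact Poisson 95% intervals, and open triangles mark the level of 3 counts where a gene had 0. Csf1 is highest in lung CD44low at 9.15, and Il6 is higher in lung CD44high (0.136) than in lung CD44low (0.036).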

How the data were processed

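Bulk libraries were made by the study with a modified SMART-seq2 protocol, aligned to mm10 with STAR and quantified with RSEM on GENCODE gene models. The deposited TPM values are the authors' length- and library-scaled levels and hold no depth per library, which is why no count test was run. Single-cell libraries (SureCell 3′ kit) were demultiplexed and quantified with kallisto by the authors, and the deposited counts per gene and barcode were used as given. Whether they count molecules or reads is not given in the sources used here. The authors' own differential expression used edgeR on counts not used here.

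Symbols were taken from the single-cell row names and, where absent, from GENCODE vM21, which held all 55450 identifiers. TPM were tested as log2(TPM + 1) with limma 3.58.1 in R 4.3.3 (7 group means, 7 residual degrees of freedom, trended empirical Bayes), keeping genes at 1 TPM or more in 2 libraries. The CD44 contrast over 3 organs used 12 libraries with organ as a term. The fit was also run on simulated data with normal noise around each gene's mean, which do not imitate genes listed at 0 in whole groups. The study, not the labels, describes replicates as distinct isolates from different mice, so on that account p-values measure the spread between isolates. The cytokines and related gene lists were chosen with earlier results of these data known. Named related genes were the receptors and, per comparison, up to 3 called genes of a list with the largest change, and some called genes are given only in the counts. Single-cell counts were summed over cells with more than 250 genes and under 10% of counts in 13 mitochondrial genes; doublets were not removed. No columns of other samples were found. Alternatives were a pseudocount of 0.1, no filter, a minimum of 5 TPM, median-ratio scaling, a replicate block, a fit of only the groups compared, leaving out each library, and other cell filters.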

Additional observations from a re-analysis of the deposited data

Results flagged for a closer look

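The CD44 difference of 2 of the 9 tested genes differed between organs, where 19.5% (lung minus LN) and 15.3% (lung minus BM) of all tested genes did, so the count is near the background. For Il1rn, the difference in lung minus that in LN was -6.62 on the log2(TPM + 1) scale (adjusted p = 0.000181, limma), and in lung minus that in BM it was -4.30 (adjusted p = 0.00332). The fitted sizes for Il1rn depend on the pseudocount, since Il1rn was listed at 0 in both lung CD44high libraries. For Il6, the difference in lung minus that in LN was -3.75 (adjusted p = 0.0161), and in lung minus that in BM it was -3.91 (adjusted p = 0.0148). Il6 was listed at 0 in LN CD44high and in both BM groups, so these Il6 values mainly restate its lung difference. The Il6 value against LN had an adjusted p of 0.0513 or 0.0504 without LN CD44high replicate 1 or 2 and of 0.066 without lung CD44low replicate 1, and the value against BM one of 0.0651 without lung CD44low replicate 1. With a pseudocount of 0.1, the adjusted p was 0.159 against LN and 0.0792 against BM.

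The single-cell barcodes that did not pass the filter also held counts of these genes above the 3 counts that a value of 0 allows. Per 10000 counts of those barcodes, lung CD44high held 1.88 of Csf1, 0.0711 of Il11, 0.0914 of Il6, 0.335 of Lif and 0.112 of Tslp. Lung CD44low held 5.71 of Csf1, 0.17 of Il11, 0.0652 of Il6, 0.209 of Lif and 0.313 of Tslp. LN CD44high held 0.769 of Csf1, 0.446 of Lif and 0.149 of Tslp. Groups of 2 libraries are too small for a test of single libraries that stand apart.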

How the results depend on the processing

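Over the 55 differences of single cytokines followed through the alternatives, 0 changed direction. The number of called genes changed by more than 1.5 times in these cases. With a pseudocount of 0.1, LN CD44low and LN CD44high against MFP each gave 4. With median-ratio scaling, LN CD44high against MFP gave 1 and the lung minus LN difference of CD44 contrasts 4. With no filter on low TPM, the CD44 contrast in LN gave 0. In fits of only the groups compared, LN CD44low against MFP gave 0, BM CD44low against MFP 2, the CD44 contrast in LN 0, BM against LN 0, and lung minus BM 4. In those fits the calls of Csf3 in LN CD44low and BM CD44low (adjusted p = 0.183 and 0.239), Lif in BM CD44low (0.101) and Tslp in lung CD44high (0.0855) against MFP were also lost. The cause was not tested. With 1 library left out, the counts ranged from 2 to 4 in LN CD44low, 1 to 3 in LN CD44high, 1 to 4 in BM CD44low, 2 to 4 in BM CD44high, and 4 to 5 in lung CD44low and lung CD44high, against MFP. They ranged from 0 to 1 for CD44 in LN, 2 to 4 for CD44 in lung, 0 to 2 for BM against LN, 1 to 5 for lung minus LN and 1 to 3 for lung minus BM, and stayed at 6 for lung against LN and BM. The lone library left in a group was assumed to vary like the others.

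With the replicate number as a block, the CD44 contrast in LN gave 0 called genes (Il1rn, adjusted p = 0.0777), and the block changed no other call of a cytokine. The labels give same-numbered libraries only a number in common, and correlations of their deviations between groups ran from -0.194 to 0.168. The mouse behind each library is not given, so whether any are paired is unknown. Among 30 single-cell levels, 0 left their counting interval with a looser mitochondrial limit, 1 with all barcodes, 3 with more than 500 genes and 7 as a mean over cells. The study gives only a minimum depth for its bulk libraries, so the depth of each is unknown. Levels near 0 TPM limit every fold change printed for them.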
